A study of Mus with 18 samples.

Results

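Scavenger receptors and C-type lectin receptors are 10 genes here, chosen by symbol from the 21401 gene symbols in the table of each experiment. They are the scavenger receptors Msr1, Marco, Scarb1, Cd163 and Olr1, the mannose receptor Mrc1, and the C-type lectins Clec4d, Clec4e, Clec4n and Clec7a. All 10 symbols were found in both tables. In the C2C12 experiment 6 of them (Msr1, Scarb1, Clec4d, Clec4e, Clec4n and Clec7a) had a mean above 1 FPKM and entered the test. In muscle this was so for 1, Scarb1, and the other 9 are described by their values.

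The study asked how moringa isothiocyanate-1 (MIC-1), a plant isothiocyanate, changes the response to lipopolysaccharide (LPS), the outer-membrane component of Gram-negative bacteria. RNA-seq gave 18 libraries in 2 experiments, each with 3 control, 3 LPS and 3 LPS-MIC-1 libraries. C2C12 is a mouse myoblast line, labelled wild type, and its control libraries are labelled as saline vehicle, its LPS libraries 1 μg/mL LPS, and its LPS-MIC-1 libraries the same LPS with 10 μM MIC-1 for 24 h. The labels state the 24 h for the LPS-MIC-1 libraries, and the paper's text names a lower MIC-1 concentration for the sequenced cells. The muscle was gastrocnemius of wild-type male C57BL/6 mice, whose age the labels do not give. Control mice are labelled as saline vehicle, and LPS mice received 10 mg/kg LPS into the peritoneum, and LPS-MIC-1 mice the same injection after 3 days of MIC-1 by gavage at 80 mg/kg in DMSO. Tissue was taken after 16 h. Saline is the vehicle named in the labels, whereas the paper names ethanol as vehicle for the cells and oral DMSO for the control mice. For mice given LPS alone no gavage is named, so gavage, DMSO and MIC-1 cannot be told apart in LPS-MIC-1 against LPS. The paper speaks of repeated experiments in general, and neither it nor the labels tie the 3 C2C12 libraries of a group to separate cultures, so their p-values measure the spread between these libraries, which may be technical.

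Scavenger receptors are surface proteins that bind and take up modified lipoproteins, bacterial components and cell debris, and most are known from macrophages. The C-type lectins of this set are pattern recognition receptors of myeloid cells. Clec4e (Mincle), Clec4d (MCL) and Clec4n (Dectin-2) signal through the adaptor Fcer1g, while Clec7a (Dectin-1) carries its own signalling motif, and all act through the kinase Syk and the Card9, Bcl10 and Malt1 complex. Muscle fibres and myoblasts are not known as a main source of these lectins, whereas Scarb1, the receptor for high-density lipoprotein, is made in many tissues.

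The C2C12 labels did not match the marker genes in every group. Of 21 macrophage genes, the median was 105 to 111 FPKM in the control libraries and 104 to 108 in the LPS libraries, against 0.0834 to 3.87 in the LPS-MIC-1 libraries. The 11 myogenic genes had a median of 0 to 0.0184, 0 to 0.0890 and 74.4 to 82.3 FPKM in the same order, and Des, the intermediate filament gene of muscle, had mean levels of 0.126, 0.498 and 398 FPKM. The libraries labelled control and LPS therefore carried macrophage genes and lacked muscle ones, and those labelled LPS-MIC-1 the reverse. Every C2C12 difference below between LPS-MIC-1 and the other groups lies along this same split, so treatment and cell type cannot be told apart in it. The comparison of LPS with control lies within the libraries that carry macrophage genes, but that list was not level between them. Its summed level was 9371 to 9453 FPKM in control and 5206 to 5323 in the LPS libraries, and Lyz2, the lysozyme gene, was at 4694 and 1838 FPKM on average. Genes of the list moved in both directions. Of its 18 tested genes, 1 was called higher, 2 lower and 15 not in the fit over 9 libraries. Over all tested genes, 10.9% were called higher and 10% lower. The median log2 fold change of the list was -0.30, beside 0 over all tested genes. The fit takes 1 spread per gene from all 3 groups, LPS-MIC-1 included, so a gene not called may still differ between control and LPS. Laptm5 was at 1025 and 567 FPKM on average in control and LPS, and Cd52 at 664 and 552. Csf1r was at 705 to 734 and 172 to 184 FPKM. Cd53 was at 105 to 111 FPKM in control and 444 to 476 in LPS, and Itgam at 60.3 to 62.3 and 147 to 151. The part of these genes in the values of LPS against control was not tested. In bulk RNA, fewer cells of a type and less RNA per cell cannot be told apart either.

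Macrophage scavenger receptor 1 (Msr1), a class A receptor for modified lipoprotein and bacterial lipid, was at 47.6, 46.9 and 47.5 FPKM in the 3 C2C12 control libraries, 95.3, 94.7 and 100.9 in LPS, and 2.89, 0.198 and 0.270 in LPS-MIC-1. The groups did not overlap, and LPS libraries were the highest. The mean was 2.05 times as high in LPS as in control, a log2 fold change of 1.03 ± 0.76 (SE, n = 3 per group), which was not called in the fit over 9 libraries (limma, Benjamini-Hochberg adjusted p = 0.273). A call here asks for an absolute log2 fold change over 1 with an adjusted p under 0.001. With the 6 control and LPS libraries alone, the same difference had an adjusted p of 1.57e-06 by limma and was called. In LPS-MIC-1, Msr1 fell below LPS by 7.14 ± 0.76 on the log2 scale (limma adjusted p = 3.37e-05).

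Scarb1, the scavenger receptor for high-density lipoprotein, went down in both steps. Its levels were 102, 99.6 and 94.3 FPKM in control, 43.9, 41.6 and 40.8 in LPS, and 9.00, 7.77 and 8.46 in LPS-MIC-1. The 3 groups were fully separate, and the libraries of each group lay close together. Scarb1 fell by 1.23 ± 0.06 (log2, SE) in LPS against control (limma adjusted p = 1.37e-06) and fell by a further 2.31 ± 0.06 in LPS-MIC-1 against LPS (limma adjusted p = 1.44e-08). As ratios of mean FPKM, control was 2.34 times LPS and LPS was 5.01 times LPS-MIC-1.

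Cd163, the haemoglobin-haptoglobin receptor of resident macrophages, was low throughout the C2C12 libraries and ran against the rest of the set. It was at 0.0236, 0.0467 and 0.0231 FPKM in control, 0.0280, 0.0280 and 0.0139 in LPS, and 0.658, 0.870 and 0.457 in LPS-MIC-1. All 3 LPS-MIC-1 libraries were above the other 6, and control and LPS overlapped. Its mean stayed under 1 FPKM, so the test left it out. With no filter on the mean, the log2 fold change of LPS-MIC-1 against LPS was 2.59 ± 0.21 (SE, limma adjusted p = 6.51e-06), and 2.58 ± 0.24 when LPS-MIC-1 replicate 1 was also left out (limma adjusted p = 4.22e-05). Without the filter 24.4% of genes were called higher there. Marco, a class A receptor that binds bacteria and particles, was listed at 0 in 7 of the 9 C2C12 libraries, with 0.0334 FPKM in LPS replicate 2 and 0.0604 in LPS-MIC-1 replicate 3. Olr1 (LOX-1), the receptor for oxidized low-density lipoprotein, was at 0.117, 0.0726 and 0.144 FPKM in control, 0.191, 0.610 and 0.329 in LPS, and 0.225, 0 and 0 in LPS-MIC-1. Its LPS libraries lay above all control libraries but overlapped with LPS-MIC-1.

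Clec4d and Clec4e, which form a receptor pair for mycobacterial glycolipid, were the members with the highest levels in LPS. Clec4d was at 31.9, 32.8 and 35.1 FPKM in control, 204, 208 and 223 in LPS, and 6.54, 0.980 and 1.496 in LPS-MIC-1. Clec4e was at 15.8, 14.2 and 16.5 FPKM in control, 178, 186 and 189 in LPS, and 4.41, 0.145 and 0.138 in LPS-MIC-1. For both genes the 3 groups were apart, in the order LPS, control, LPS-MIC-1. Mean FPKM was 6.37 times as high in LPS as in control for Clec4d and 11.9 times as high for Clec4e.

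Neither of these differences was called in the fit over 9 libraries, where the limma adjusted p was 0.00372 for Clec4d (log2 fold change 2.67 ± 0.57, SE) and 0.0145 for Clec4e (3.57 ± 1.01, SE). With the 6 control and LPS libraries alone both were called, with limma adjusted p of 4.89e-07 and 3.59e-07. Against LPS, the LPS-MIC-1 libraries fell by 6.55 ± 0.57 for Clec4d (log2, SE, limma adjusted p = 9.50e-06) and by 8.17 ± 1.01 for Clec4e (limma adjusted p = 8.69e-05). Without LPS-MIC-1 replicate 1 these log2 fold changes were -7.33 and -9.58, and that of Msr1 was -8.19. Clec4d stood at 2.01 to 2.32 times Clec4e in the control libraries and at 1.12 to 1.18 times in the LPS libraries. These ranges do not overlap, so within a library Clec4e gained on its neighbour under LPS.

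Clec4n (Dectin-2), a receptor for fungal mannans, is the neighbour of Clec4d in the mouse genome, and Clec4d in turn is next to Clec4e (RefSeq gene order, GRCm38.p6). Its levels were 0.466, 0.242 and 0.185 FPKM in control, 3.98, 4.83 and 5.16 in LPS, and 0.291, 0.118 and 0.224 in LPS-MIC-1. The LPS libraries stood above the other 6, while control and LPS-MIC-1 overlapped. Clec4n rose in LPS against control by a log2 fold change of 3.63 ± 0.31 (SE, limma adjusted p = 1.89e-05), a 15.6-fold ratio of mean FPKM and the largest ratio for that comparison among the 6 tested members. It fell by 3.97 ± 0.31 in LPS-MIC-1 against LPS (limma adjusted p = 4.47e-06). Clec4n passed the filter only through its LPS libraries, as its mean was 0.298 FPKM in control and 0.211 in LPS-MIC-1. These p-values are therefore a description. LPS-MIC-1 against control gave -0.33 ± 0.31 (limma adjusted p = 0.340), not called, but -1.55 with an adjusted p of 0.000770 after quantile normalization. The level of Clec4n was far below that of its neighbours, with Clec4d at 43.1 to 51.3 times Clec4n in the LPS libraries.

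Clec7a (Dectin-1), the receptor for fungal beta-glucan, moved against the other lectins under LPS. It was at 29.96, 29.2 and 25.9 FPKM in control, 9.95, 8.65 and 8.41 in LPS, and listed at 0 in all 3 LPS-MIC-1 libraries. The groups did not overlap. Clec7a fell by 1.65 ± 0.11 in LPS against control (log2, SE, limma adjusted p = 4.81e-06), a level 3.15 times as high in control. No fold is given against LPS-MIC-1, since its values there were 0, and the limma adjusted p of that comparison was 2.95e-09. Values of 0 have no spread and the fitted difference is set by the added 0.1, so this p-value is a description. Clec4d was 1.06 to 1.36 times Clec7a in control and 20.5 to 26.6 times in LPS.

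Mrc1 (CD206), the mannose receptor that marks alternatively activated macrophages, was low. It was at 0.407, 0.249 and 0.256 FPKM in control, 0.104, 0.127 and 0.0915 in LPS, and 0.0271, 0.0550 and 0.0836 in LPS-MIC-1. The 3 groups were apart in that order, although all values were under 1 FPKM and the test left the gene out. With no filter, LPS against control gave a log2 fold change of -0.94 ± 0.20 (SE, limma adjusted p = 0.00490), not called. LPS-MIC-1 against control gave -1.37 ± 0.20 (limma adjusted p = 0.000341), which was called as 16.9% of all genes were called lower there, and -1.24 with LPS-MIC-1 replicate 1 left out as well (limma adjusted p = 0.00122), not called.

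**Figure D1:**
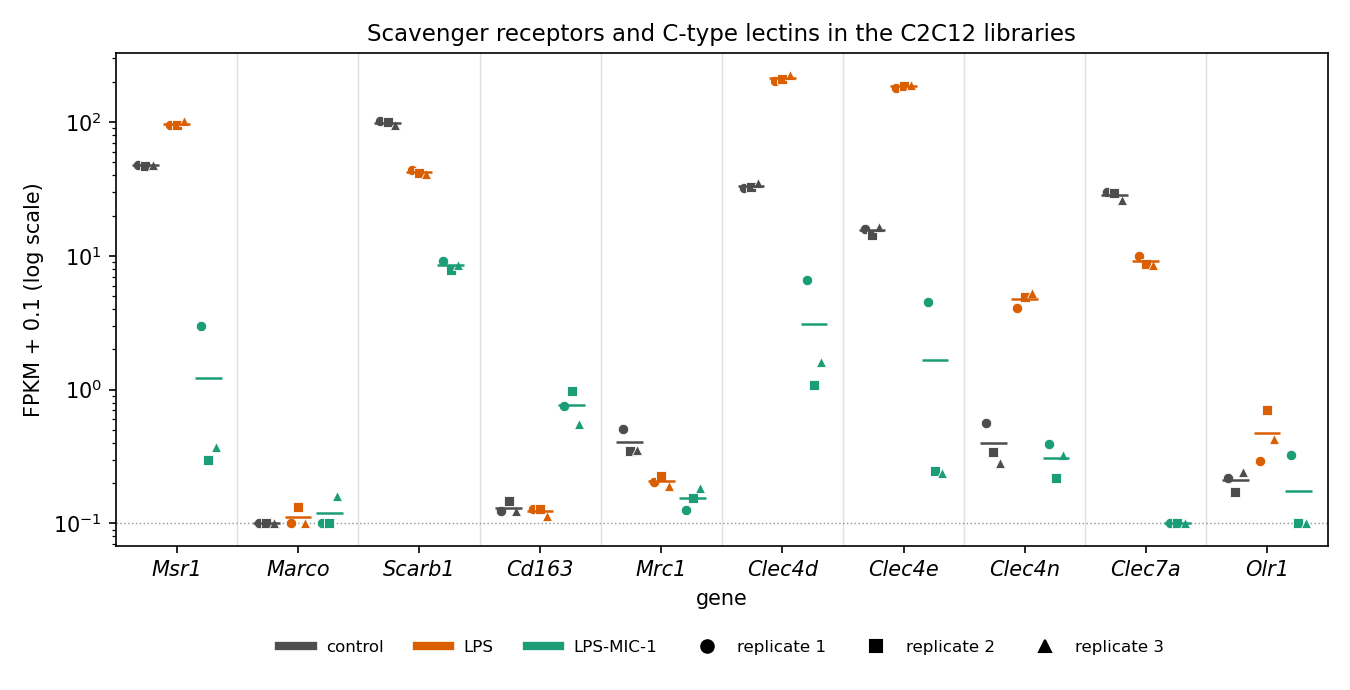
FPKM plus 0.1 on a log scale for the 10 genes in the 9 C2C12 libraries, with a symbol for each replicate, a bar at the mean of each group, and a dotted line where FPKM is 0. Clec4d and Clec4e reach 178 FPKM or more in every LPS library, Clec7a sits on the dotted line in all 3 LPS-MIC-1 libraries, and LPS-MIC-1 replicate 1 lies above replicates 2 and 3 for Msr1, Clec4d and Clec4e.

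By level, the order in the C2C12 control libraries was Scarb1, Msr1, Clec4d, Clec7a and Clec4e, with mean levels of 98.6, 47.4, 33.3, 28.4 and 15.5 FPKM. No neighbours in that order overlapped, and the other 5 members were under 0.5 FPKM in every control library. In LPS the order became Clec4d, Clec4e, Msr1, Scarb1, Clec7a and Clec4n, with mean levels of 212, 185, 97.0, 42.1, 9.00 and 4.66 FPKM. Again no neighbours overlapped. Scarb1, the highest member in control, stood below 3 others in LPS, and it was the highest in all 3 LPS-MIC-1 libraries, where its mean was 8.41 ± 0.618 FPKM (SD, n = 3). FPKM is scaled for transcript length, which allows these comparisons between genes.

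Of the 6 tested members, 1 (Clec4n) was called higher and 2 (Clec7a and Scarb1) lower in LPS against control. In this comparison 20.9% of all 10877 tested genes were called, 10.9% higher and 10% lower. Clec4n had passed the filter only through its LPS libraries. The count of members called was 6 with the 6 control and LPS libraries alone, 4 higher and 2 lower. In that fit 1353 of the 10877 genes were called higher and 1233 lower. Over all 9 members above 0 in at least 3 libraries, LPS lay wholly above control for 5 and wholly below for 3, and 33% and 31.4% of all genes with values did so. LPS-MIC-1 lay wholly below LPS for 7 of the 9 and wholly above for 1 (Cd163), against 34.9% and 42.4% of genes. In LPS-MIC-1 against LPS, all 6 tested members were called lower, where 49.9% of genes were called in either direction and 25.6% lower. In LPS-MIC-1 against control, 4 were called lower (Msr1, Scarb1, Clec4d and Clec7a), where 43.3% of genes were called and 22.1% lower. Clec4e, at -4.60 ± 1.01 (log2, SE), was not called there by limma at an adjusted p of 0.00296. For a single gene, a 2-sided exact permutation test between 3 and 3 libraries has a smallest possible p of 0.1.

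**Figure D2:**
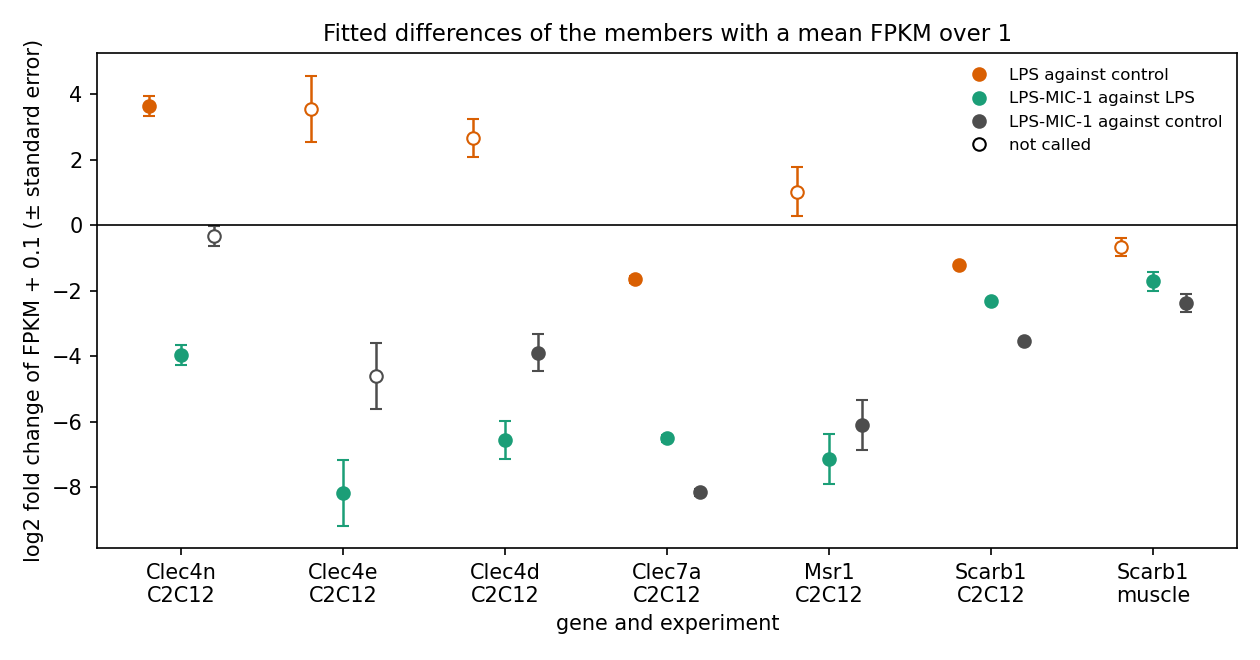
Log2 fold changes of FPKM plus 0.1 with standard errors from limma for the 6 C2C12 members with a mean over 1 FPKM and for Scarb1 in muscle, with 3 comparisons per gene and open circles where a difference was not called. Clec4e, Clec4d and Msr1 have wide bars (SE 0.57 to 1.01) in all C2C12 comparisons, since 1 spread is shared by the 3 groups, and Clec7a against LPS-MIC-1 is set by the added 0.1 because its values there are 0.

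LPS-MIC-1 replicate 1 stood apart from replicates 2 and 3. Its level was 2.98% of the LPS mean for Msr1, 3.09% for Clec4d and 2.39% for Clec4e, where replicates 2 and 3 ranged from 0.0748% to 0.706% for these 3 genes. Of the 21 macrophage genes, the 16 above 5 FPKM in LPS were at a median of 2.85% of their LPS mean in replicate 1 (2.16% to 5.66%), 0.111% in replicate 2 and 0.0381% in replicate 3. The 3 receptors thus sat at about the same share of LPS as macrophage genes at large in replicate 1. In replicates 2 and 3, Msr1 (0.20% and 0.28%) and Clec4d (0.463% and 0.706%) were above the macrophage medians. Clec4e (0.0787% and 0.0748%) was below the median in replicate 2 and above it in replicate 3. The part of replicate 1 in these values was not tested. Clec7a was at 0 in replicate 1 as well, and Scarb1 was at 21.4%, 18.5% and 20.1% of LPS in the 3 libraries, with no such difference between them. Without replicate 1, the count of members called in LPS against control was 6 in place of 3. In that fit 1287 of all 10877 tested genes were called higher and 1154 lower. Clec4e was then called lower in LPS-MIC-1 against control (log2 fold change -6.01, limma adjusted p = 2.46e-09).

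**Figure D3:**
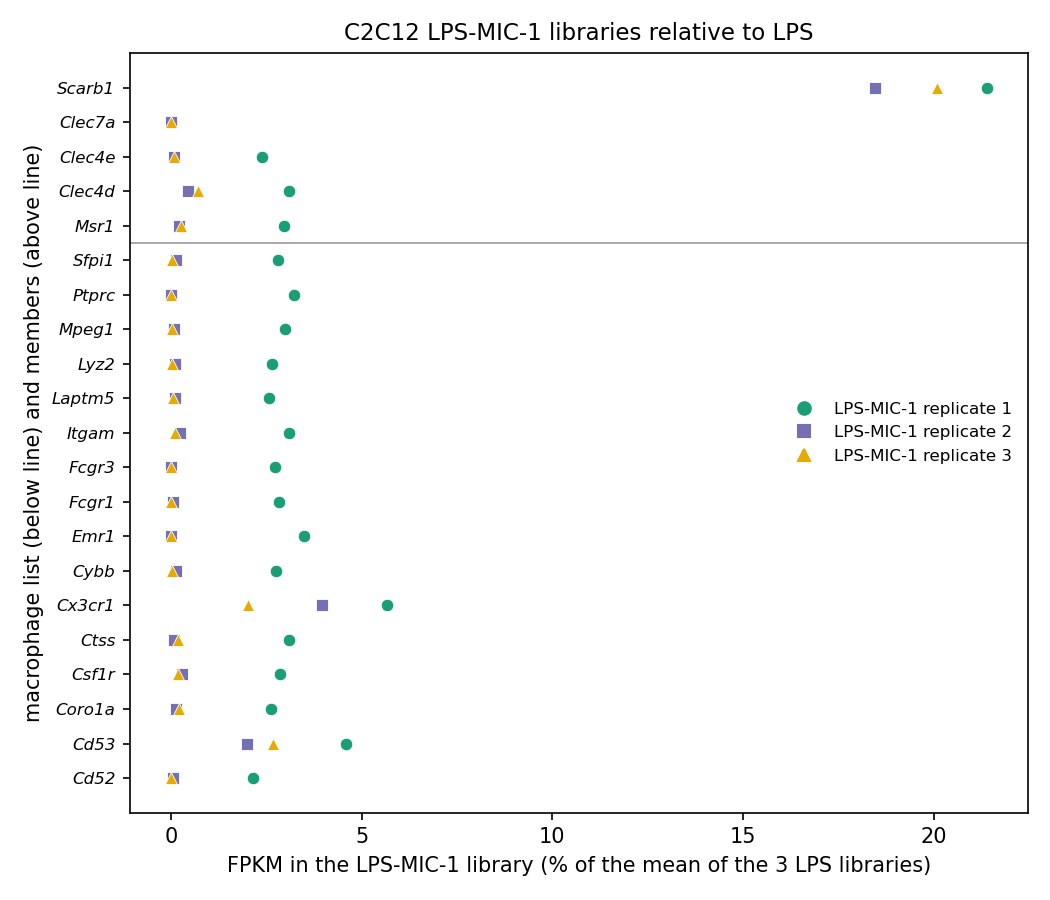
FPKM in each C2C12 LPS-MIC-1 library as a percentage of the mean of the 3 LPS libraries, for the 5 receptor genes and the 16 macrophage genes above 5 FPKM in LPS. Replicate 1 lies between 2.16% and 5.66% for the macrophage genes, with Msr1, Clec4d and Clec4e inside that range, while Scarb1 is near 20% in all 3 libraries and Clec7a is at 0.

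Genes of the signalling chain below the lectins were followed from a list of 22, all of which were tested in C2C12. In LPS against control, 3 were called higher and 0 lower in the fit over 9 libraries, with a median log2 fold change of 0.15 beside 0 over all tested genes. Genes not called may still differ, as that fit takes 1 spread per gene from all 3 groups. Ptpn6, not called lower, was at 229 to 243 FPKM in control and 85.1 to 88.8 in LPS. Syk (listed as Sykb) rose, with mean levels of 25.01 and 80.8 FPKM (log2 fold change 1.69 ± 0.18, SE, limma adjusted p = 7.04e-05). The kinase gene Src rose from 1.91 to 71.4 FPKM (5.15 ± 0.05, limma adjusted p = 8.42e-10). Neither adaptor was called, with Fcer1g at 998 and 1225 FPKM and Tyrobp at 1137 and 621 FPKM in control and LPS. The Card9 level was 51.4 and 53.2 FPKM, Bcl10 24.4 and 44.2, and Malt1 2.38 and 2.84, none of them called. In LPS-MIC-1 against LPS, 17 of the 22 were called lower and 0 higher, with a median of -4.22 beside -0.05 over all tested genes. Fcer1g was at 30.4, 1.69 and 0.216 FPKM in the 3 LPS-MIC-1 libraries, again highest in replicate 1.

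Other C-type lectins and other scavenger receptors were counted from lists that exclude the 10. The C2C12 counts come from the same fit over 9 libraries, so genes not called between LPS and control may still differ here too. Of 13 other lectins tested in C2C12, 0 were called higher and 2 lower in LPS against control, and 3 higher and 8 lower in LPS-MIC-1 against LPS (median log2 fold change -3.07). The 3 higher ones included Mrc2, the collagen receptor of mesenchymal cells, with mean levels of 0.0593 and 35.4 FPKM under the respective treatments, and Mgl2, with 0.0435 and 16.7 FPKM. Both were low in control as well and passed the filter only through their LPS-MIC-1 libraries, so these calls are a description. Of 13 other scavenger receptors, 3 were called higher and 1 lower in LPS against control, and 3 higher and 6 lower in LPS-MIC-1 against LPS (median -0.25). Cd14, the LPS co-receptor, rose from 705 to 2040 FPKM in LPS (limma adjusted p = 0.000176) and stood at 99.3 in LPS-MIC-1. Cd36, a class B receptor like Scarb1, had mean levels of 30.3, 161 and 2.06 FPKM in control, LPS and LPS-MIC-1, and its difference between LPS and control was not called (2.41 ± 1.03, limma adjusted p = 0.0731). Scarb1 and Cd36 thus differed in the direction of their mean levels under LPS.

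Genes that handle lipoprotein, cholesterol and haem, the cargo of Scarb1 and Cd163, gave 5 higher and 2 lower of 14 tested in LPS against control, and 4 higher and 7 lower in LPS-MIC-1 against LPS. Abca1, which exports cholesterol to lipoprotein, rose in LPS against control from 3.05 to 12.8 FPKM (log2 fold change 2.04 ± 0.14, limma adjusted p = 7.02e-06) while Scarb1 fell. Hmox1, the haem-degrading enzyme, rose from 145 to 4524 FPKM (4.96 ± 0.32, limma adjusted p = 4.19e-06). In LPS-MIC-1 the levels were 1.35 FPKM for Abca1 and 107 for Hmox1.

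In gastrocnemius muscle the set was scarce. Scarb1 was the one member above 1 FPKM on average, and its levels were 12.2, 10.4 and 8.72 FPKM in control, 5.50, 6.50 and 7.68 in LPS, and 1.26, 1.81 and 3.01 in LPS-MIC-1. The 3 groups were apart, in the same order as in C2C12. LPS against control gave -0.66 ± 0.28 (log2, SE, n = 3 per group, limma adjusted p = 0.161), not called. Scarb1 fell by 1.72 ± 0.28 in LPS-MIC-1 against LPS (limma adjusted p = 0.000985) and by 2.38 ± 0.28 against control (limma adjusted p = 0.000143), calls that in muscle ask for an adjusted p under 0.05. In those 2 comparisons 15.1% and 15.5% of all 9475 tested genes were called, 5.44% and 6.12% lower, and in LPS against control 1.25%. Over all genes, LPS-MIC-1 against LPS gave 916 higher and 515 lower calls, and 768 and 680 after quantile normalization. Scarb1 was called in both comparisons whichever 1 library was left out.

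Clec4d and Clec4e were close to 0 in the control and LPS muscle and present in all 3 LPS-MIC-1 libraries. Clec4d was at 0, 0.0637 and 0 FPKM in control, 0, 0.0651 and 0 in LPS, and 0.570, 0.365 and 1.498 in LPS-MIC-1. Clec4e was at 0.0315, 0 and 0.0317 FPKM in control, 0 in all 3 LPS libraries, and 0.434, 0.508 and 0.652 in LPS-MIC-1. Neither gene's LPS-MIC-1 values overlapped with the other 6 libraries. These are few reads, since, scaled for depth, the Clec4e values were 14, 17 and 23 times the value of the smallest step, taken as 1 read, and the Clec4d values 9, 6 and 26 times. Both means were under 1 FPKM. With no filter, LPS-MIC-1 against LPS gave 2.75 ± 0.46 for Clec4d (log2, SE, limma adjusted p = 0.00175) and 2.64 ± 0.20 for Clec4e (limma adjusted p = 1.47e-05), with 8.81% of all 15434 genes called higher. Of the 5 libraries in which each gene was above 0, 3 were the LPS-MIC-1 libraries, so these p-values are a description.

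Among the scavenger receptors, Marco was at 0 in the 3 muscle control libraries, 0, 0 and 0.0829 FPKM in LPS, and 0.204, 0.157 and 0.112 in LPS-MIC-1. Msr1 was at 0.183, 0.106 and 0.146 FPKM in control, 0.0214, 0.0645 and 0.0576 in LPS, and 0.205, 0.198 and 0.911 in LPS-MIC-1. For both genes the LPS-MIC-1 libraries lay above all the others, although by a small margin for Msr1 in replicates 1 and 2. Clec7a was listed at 0 in 8 of the 9 muscle libraries and at 0.883 FPKM in LPS-MIC-1 replicate 3. Clec4n had 0.0769 FPKM in LPS replicate 1 and 0 elsewhere, and Olr1 was at 0 in all 9. Of the 7 members above 0 in at least 3 muscle libraries, LPS lay wholly above control for 1 (Mrc1) and wholly below for 2 (Msr1 and Scarb1), where 14.1% and 13.9% of all genes did so. LPS-MIC-1 lay wholly above LPS for 4 and wholly below for 3, where 26% and 24.7% of all genes did so.

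Cd163 and Mrc1, 2 of the markers of resident macrophages, went the other way in muscle. Cd163 was at 0.504, 0.797 and 0.601 FPKM in control, 0.946, 0.845 and 0.779 in LPS, and 0.393, 0.495 and 0.454 in LPS-MIC-1. Mrc1 was at 0.400, 0.554 and 0.590 FPKM in control, 0.677, 0.621 and 0.629 in LPS, and 0.239, 0.339 and 0.206 in LPS-MIC-1. The LPS-MIC-1 libraries were the lowest of the 9 for both genes. With no filter, LPS-MIC-1 against LPS gave -1.06 ± 0.22 for Mrc1 (log2, SE, limma adjusted p = 0.00532), which was called where 5.17% of all genes were called lower, and -0.81 ± 0.21 for Cd163 (limma adjusted p = 0.0146), under the fold needed for a call. Without LPS-MIC-1 replicate 3, Mrc1 was at -0.94 and no longer called. Of 13 other genes of resident and alternatively activated macrophages, 7 were tested. In LPS-MIC-1 against LPS, 1 of them was called lower, 0 higher and 6 not, where 5.44% of all tested genes were called lower. The 3 most abundant had means of 68.5 and 68.7 FPKM (Cbr2), 46.4 and 47.9 (Sepp1) and 48.0 and 18.3 (Maf) in LPS and LPS-MIC-1.

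**Figure D4:**
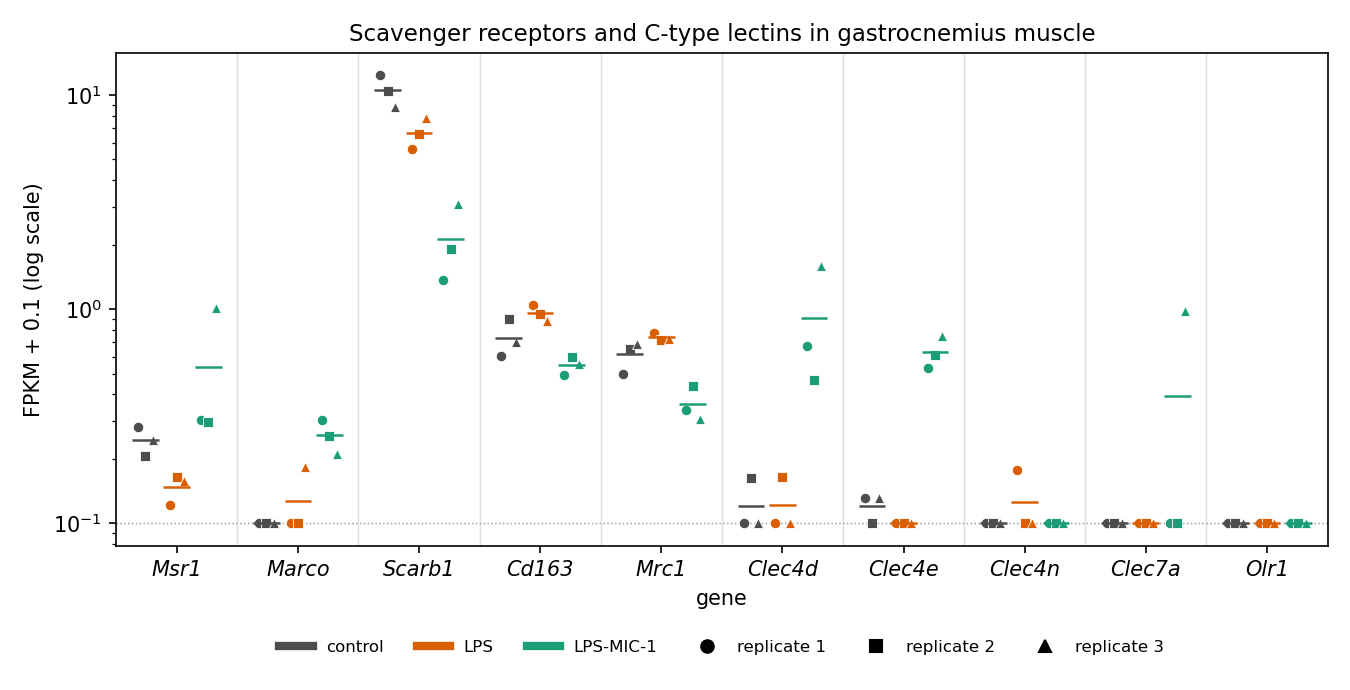
FPKM plus 0.1 on a log scale for the 10 genes in the 9 gastrocnemius libraries, with a symbol for each replicate, a bar at the mean of each group, and a dotted line where FPKM is 0. Scarb1 is the only gene above 2 FPKM in any library, Clec4d and Clec4e leave the dotted line clearly in the 3 LPS-MIC-1 libraries alone, and replicate 3 of LPS-MIC-1 is the highest for Msr1, Clec4d, Clec4e and Clec7a.

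The median of the macrophage genes was higher in the muscle LPS-MIC-1 libraries, though not every gene was, and replicate 3 stood apart. The median of the 21 genes was 1.08, 1.197 and 4.54 FPKM in the 3 LPS-MIC-1 libraries, 0.455 to 0.575 in the control and 0.430 to 0.659 in the LPS libraries. Their summed level was 194 FPKM in replicate 3, against 41.6 and 40.5 in replicates 1 and 2, 28.7 to 32.7 in control and 43.4 to 45.8 in LPS. Lyz2 was at 78.3 FPKM in that library and at 5.27 and 3.93 in the other LPS-MIC-1 libraries. The summed level of the 13 neutrophil genes was 15.3 to 20.4 FPKM in the 3 LPS-MIC-1 libraries, 2.06 to 3.13 in control and 1.89 to 2.24 in LPS. S100a8, a neutrophil calcium-binding protein, was at 7.25, 7.47 and 7.41 FPKM in LPS-MIC-1 and at 0 to 0.739 in the other 6 libraries. S100a9 was at 0, 6.65 and 4.79 FPKM in LPS-MIC-1, and Cxcr2 had means of 1.17 in LPS and 1.44 in LPS-MIC-1. Of 4 tested neutrophil genes, 2 were called higher in LPS-MIC-1 against LPS, 0 lower and 2 not. The endothelial genes, from cells that also carry Scarb1, had a median between 5.47 and 6.83 FPKM under LPS, between 10.7 and 12.4 without it, and between 9.38 and 10.6 in LPS-MIC-1. The part of these cell types in the receptor values was not tested. Without replicate 3 and with no filter, Clec4d, Clec4e, Marco and Msr1 were called higher and Scarb1 lower in LPS-MIC-1 against LPS. Their log2 fold changes were 2.24, 2.51, 1.19, 1.04 and -2.03. The 5 calls compare with 6 when replicate 3 was kept. Over all 15434 genes, 1281 were called higher and 827 lower without replicate 3, and 1360 and 798 with it. Of the 4 muscle libraries in which Marco was above 0, 3 were LPS-MIC-1 libraries. Its call, like those of Clec4d and Clec4e, is a description.

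Related genes in muscle were also counted. Of 8 other C-type lectins tested, 1 was called higher and 3 lower in LPS-MIC-1 against LPS, and of 12 other scavenger receptors 3 higher and 3 lower, with none called in LPS against control for either list. Cd14 was at 3.39, 3.74 and 15.5 FPKM in LPS-MIC-1 and at 0.395 to 0.599 in LPS (log2 fold change 3.37 ± 0.56, limma adjusted p = 0.00103). With 0.296 to 0.692 FPKM in control, Cd14 passed the filter only through its LPS-MIC-1 libraries, so this p-value is a description. Of 11 signalling genes tested, 1 was called higher, the adaptor Fcer1g, at 16.5, 15.5 and 25.96 FPKM in LPS-MIC-1 and 6.50 to 7.95 in LPS (1.35 ± 0.20, limma adjusted p = 0.000526). Mrc2 went from 1.58 to 0.317 FPKM and was called lower (-2.02 ± 0.18, limma adjusted p = 2.67e-05), the reverse of its direction in C2C12. Of 15 lipoprotein and haem genes, 5 were called higher and 3 lower in LPS-MIC-1 against LPS. Haptoglobin (Hp), whose complex with haemoglobin is bound by Cd163, had means of 0.380 and 26.03 FPKM (6.20 ± 0.66, limma adjusted p = 7.60e-05), while Cd163 was at its lowest levels. With 0.313 to 0.502 FPKM in control, Hp also passed the filter only through its LPS-MIC-1 libraries, so its p-value is a description. The summed level of 9 liver genes was 1.40 to 2.77 FPKM in the LPS libraries and 6.70 to 7.18 in LPS-MIC-1, and that of 8 adipose genes 259 to 281 and 561 to 599. Much of the adipose sum was Plin4, with means of 38.1 and 249 FPKM, and Fabp4, with 227 and 325. Of 3 tested adipose genes 1 was called higher, and of 1 tested liver gene 0, where 916 of all 9475 tested genes were called higher. The part of these genes in the Hp value was not tested.

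The genes whose log2 values ran most like each tested member over the 9 libraries of an experiment are given by Pearson's r, as a description. For Msr1 in C2C12 they were Nckap1l and Oas1a, both at r = 0.999. Clec4d was most like Hcfc2 and Ifih1 (both 0.999), Clec4e like Kctd12 and Csf2rb2 (both 0.998), Clec4n like Serpini1 (0.9902) and Aldh1l2 (0.9901), and Clec7a like Nfkbid (0.9997) and Gna15 (0.9996). Scarb1 was most like Acly (0.9995) and Myd88 (0.999) in C2C12 and like Rgl2 (0.986) and Atp13a2 (0.983) in muscle. The 9 libraries share 3 groups and, in C2C12, the split in cell markers, and for the 6 C2C12 members between 3 (Clec4n) and 243 (Clec7a) genes had an r over 0.99, against 0 for Scarb1 in muscle.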

How the data were processed

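The authors deposited 2 tables of FPKM values (fragments scaled for transcript length and library size), 1 per experiment, with 21401 gene symbols and 9 libraries each. Kallisto, DESeq2 and the build mm9 are named in the submitters' processing notes. Read totals are not given. Depth relative to control replicate 1 was judged from the FPKM worth of 1 read. In C2C12 it was 1 to 1.02 in control, 0.841 to 0.846 in LPS, and 0.717, 0.884 and 0.465 in LPS-MIC-1 replicates 1, 2 and 3. In muscle it was 0.988 to 1.11. The 6 deposited tables of the authors' DESeq2 comparisons, with fold changes and p-values, and 11 unnamed columns of the muscle table, 9 of them with values, were not used.

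Genes with a mean over 1 FPKM (10877 in C2C12, 9475 in muscle) were compared as log2(FPKM + 0.1) with limma 3.58.1 in R 4.3.3, with 1 mean per group, eBayes with trend, and Benjamini-Hochberg adjustment over all tested genes. Fold changes on this scale understate those of low genes. Calls asked for an adjusted p under 0.001 (C2C12) or 0.05 (muscle) together with an absolute log2 fold change over 1. The steps were tested on simulated data.

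Named genes are all 10 members, the Fcer1g, Syk, Card9, Bcl10 and Malt1 chain with Tyrobp, genes from the 3 largest absolute changes of each list in LPS against control or LPS-MIC-1 against LPS, genes from the 3 most abundant of each marker list, and the 2 genes most like each member. Csf1r, Cd53 and Itgam are named besides, as macrophage genes that were lower (Csf1r) or higher in C2C12 LPS than in control. The members and gene lists were chosen with earlier results of these data known. The listed genes Cd68 and Ly6g were not used here. Gene neighbours come from RefSeq (GRCm38.p6), by symbol only. Figures were drawn with matplotlib 3.10.9. The fits were repeated with a pseudocount of 1 or 0.01, with the FPKM filter dropped (a gene then had to be above 0 in 3 or more libraries) or raised to a mean over 5, after median-ratio scaling or quantile normalization, without trend, with a replicate block, on just the 6 libraries of a comparison, at an unadjusted p, and without each library in turn.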

Additional observations from a re-analysis of the deposited data

Results flagged for a closer look

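For 5 members the values of the 2 groups were apart in opposite directions in the 2 experiments. In each case every library of the first group lay to one side of every library of the second group in C2C12 and to the other side in muscle, and the difference between the experiments was not tested. Values are the log2 ratio of (mean FPKM + 0.1), with C2C12 given first and muscle second. In LPS against control they were 1.03 and -0.73 for Msr1, and -0.96 and 0.27 for Mrc1. In LPS-MIC-1 against LPS they were -6.32 and 1.86 for Msr1, 2.63 and -0.81 for Cd163, -6.09 and 2.90 for Clec4d, and -6.79 and 2.66 for Clec4e. In LPS-MIC-1 against control they were -5.28 and 1.14 for Msr1, 2.54 and -0.42 for Cd163, -3.43 and 2.91 for Clec4d, and -3.23 and 2.38 for Clec4e. The last 2 comparisons share the LPS-MIC-1 libraries. Of the 14182 genes above 0 in at least 3 libraries of both experiments, 10.7% were apart in opposite directions in LPS against control, 25.9% in LPS-MIC-1 against LPS and 26% in LPS-MIC-1 against control. Neither experiment gave a call for Msr1 or Mrc1 in LPS against control in the limma fit over 9 libraries, with or without the FPKM filter, and the muscle values of Cd163 were not called either. The muscle value of Msr1 in LPS-MIC-1 against control was not called (limma with no filter, adjusted p = 0.157), and without LPS-MIC-1 replicate 3 the log2 fold change was 0.31 (adjusted p = 0.333). In muscle the means of these 5 genes were under 1 FPKM in every group, and in C2C12 the comparisons with LPS-MIC-1 lie along the split in macrophage and myogenic markers.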

How the results depend on the processing

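The number of members called in C2C12 LPS against control was 3. It was 5 with a pseudocount of 1 and with an unadjusted p under 0.05, and 6 with only the 6 libraries compared. Over all settings other than leaving out a library, it ranged from 2 to 6. Clec4n, with a mean of 1.72 FPKM over the 9 libraries, is not tested when the filter is raised to a mean over 5. Leaving out 1 library at a time gave 3 to 6, with 6 only without LPS-MIC-1 replicate 1, with or without the FPKM filter. For LPS-MIC-1 against LPS the count was 6. It was 6 to 7 when 1 library was left out, with or without the FPKM filter, and 5 to 7 over the other settings. For LPS-MIC-1 against control it was 4 (3 to 6 when 1 library was left out), but 2 with only the 6 libraries compared, where Msr1 and Clec4d were lost. Clec4d was also lost there without any 1 control library or without LPS-MIC-1 replicate 3. In muscle, LPS-MIC-1 against LPS gave 1 member, 6 with no FPKM filter and 5 with no filter and without LPS-MIC-1 replicate 3, and LPS-MIC-1 against control gave 1, then 4 and 4, since the other members are tested only without the filter. LPS against control gave 0 members in muscle under every alternative run, and the unadjusted p also called 0. No tested member changed direction. The fall of Clec4e in C2C12 LPS-MIC-1 against LPS, at -8.17, was -6.60 with a pseudocount of 1 and -8.63 with 0.01, and -7.46 to -9.58 when 1 library was left out. Quantile normalization moved the median log2 fold change of all muscle genes from -0.01 to -0.12 in LPS-MIC-1 against LPS and from 0.01 to -0.11 against control. Leaving out LPS-MIC-1 replicates 1 or 3 with no filter was chosen after seeing the data.

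Replicate numbers did not pair the samples, as same-numbered libraries had deviations correlated between -0.076 and 0.082. With a replicate block the counts of members called were unchanged, at 3, 6 and 4 in C2C12 and 0, 1 and 1 in muscle. Read totals are not given, so the counting error behind the low values is unknown in both experiments.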
